A study of Mus musculus with 194 samples.

Results

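Transposon insertions at 9 genes of the Notch pathway were followed through a calling card data set from mouse brain: the receptors Notch1 and Notch2, the ligands Dll1 and Jag1, the receptor-modifying enzyme Lfng, the nuclear partners Rbpj and Maml2, and the target genes Hes1 and Hes5. They were chosen by name. A locus was the gene body in the GRCm38 mouse genome with 10.0 kb on each side, and the 9 loci were counted among 21631 protein-coding loci placed the same way. In a calling card experiment a viral transposon inserts into genomic TTAA sites, with a transposase that favours open, active chromatin or is drawn to the sites of a fused transcription factor. Each insertion leaves a readable mark, and an insertion count records where the transposase has acted. It is not an expression level. Levels are given as insertions per 1000000 insertions of the table, written CPM.

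The 46 animals carried adeno-associated virus injected on postnatal day 0 to 1, and fell into 11 groups, with a pooled culture of N2a, a mouse neuroblastoma line, as a further table. C57bl6J (2 animals) received viruses that do not need Cre. Syn1Cre (6) and Syn1CreNeg (6) were animals with and without Cre of a synapsin 1 line, which targets neurons. GFAPCre (6) and GFAPCreNeg (6) were the same for a line of the glial fibrillary acidic protein gene, which targets astrocytes, and Frontflip_GFAPCre (3) and Frontflip_GFAPCreNeg (3) carried a Frontflip construct that the labels do not describe further. Syn1Cre_SP1_P10 (3) and Syn1Cre_SP1_P28 (4) carried calling cards labelled with SP1, a factor that binds GC-rich promoter sequence, and were collected at day 10 and day 28. The SP1 construct is not described in the labels; the groups without that label are called unfused here. Rbp4Cre_TRAP (4) was whole forebrain of an Rbp4 Cre line, with RNA isolated by translating ribosome affinity purification. In those groups and in N2a the insertions were read from RNA, in most from cortex cut into 10 pieces. BrokenHeart (3) had insertions read from DNA by inverse PCR, after a pool of barcoded transposons. An age at collection is not given in the sources used here for the groups other than the SP1 ones.

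Notch signalling passes between touching cells. A ligand of the Delta-like or Jagged family on 1 cell binds a Notch receptor on its neighbour, the receptor is cut, and its intracellular part enters the nucleus, where it joins the DNA-binding protein RBPJ and a Mastermind-like coactivator. The complex activates Hes and Hey genes, which encode repressors. In the developing brain the pathway holds progenitors back from becoming neurons and favours glial fates, and in the adult it stays active in astrocytes and stem cells.

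The receptor bodies were at chr2:26457902-26503822 for Notch1, on the minus strand, and at chr3:98013538-98150367 for Notch2. The ligand bodies were at chr17:15367354-15376932 for Dll1 and chr2:137081451-137116520 for Jag1, both on the minus strand. Lfng was at chr5:140607341-140615545, Rbpj at chr5:53555779-53657445, Maml2 at chr9:13296561-13709533, Hes1 at chr16:30065357-30067796 and Hes5 at chr4:154960626-154962372. With flanks, the loci ran from 21.7 kb for Hes5 to 433 kb for Maml2, so levels are compared between members only per kb. The body of another gene reached into 4 of the loci: Slx4ip in that of Jag1 by 9901 bp, Ttyh3 in that of Lfng by 4969 bp, Ccdc82 in that of Maml2 by 5957 bp and Pank4 in that of Hes5 by 8250 bp. An insertion there cannot be assigned to either gene.

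Because SP1 reads GC boxes and the transposon reads TTAA, the promoter windows of Notch1, Notch2 and Dll1 are shown. They are examples and not a ranking of the members by differences near the start. Each runs from 250 bases before to 50 after a RefSeq start (GRCm38.p6), along the gene, with GGGCGG on either strand and TTAA in capitals. The Notch1 window is chr2:26503773-26504072 on the minus strand, the Notch2 window chr3:98013288-98013587 on the plus strand, and the Dll1 windows, for its listed starts, chr17:15375774-15376073 and chr17:15376883-15377182 on the minus strand.
Notch1: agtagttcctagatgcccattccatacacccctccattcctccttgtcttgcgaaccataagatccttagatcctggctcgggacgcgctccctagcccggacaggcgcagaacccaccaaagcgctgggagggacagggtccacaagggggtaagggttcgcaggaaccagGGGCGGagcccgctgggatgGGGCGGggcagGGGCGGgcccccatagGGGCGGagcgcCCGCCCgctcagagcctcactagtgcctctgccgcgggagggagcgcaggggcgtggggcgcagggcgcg
Notch2: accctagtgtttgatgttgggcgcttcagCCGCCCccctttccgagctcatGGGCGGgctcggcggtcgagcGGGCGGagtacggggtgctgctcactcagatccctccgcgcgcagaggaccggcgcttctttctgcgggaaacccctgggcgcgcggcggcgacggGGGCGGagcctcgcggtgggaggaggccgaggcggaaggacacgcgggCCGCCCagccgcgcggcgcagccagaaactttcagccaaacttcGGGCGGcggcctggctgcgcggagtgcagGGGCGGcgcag
Dll1, start at 15375823: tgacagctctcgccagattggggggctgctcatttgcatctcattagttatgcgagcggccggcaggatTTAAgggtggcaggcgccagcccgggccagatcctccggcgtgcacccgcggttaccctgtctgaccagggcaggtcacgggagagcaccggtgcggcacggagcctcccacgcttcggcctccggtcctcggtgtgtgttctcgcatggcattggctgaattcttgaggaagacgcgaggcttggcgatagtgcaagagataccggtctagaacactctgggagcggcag
Dll1, start at 15376932: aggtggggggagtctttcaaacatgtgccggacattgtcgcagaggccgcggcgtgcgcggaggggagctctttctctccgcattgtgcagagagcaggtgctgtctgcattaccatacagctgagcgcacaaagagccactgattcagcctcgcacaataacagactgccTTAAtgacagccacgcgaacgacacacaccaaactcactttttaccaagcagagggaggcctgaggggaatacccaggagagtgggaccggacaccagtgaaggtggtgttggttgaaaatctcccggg
GGGCGG occurred 5 times in the Notch1 window and 7 times in the Notch2 window, 1 time each in the Lfng window and in 1 of the 2 Rbpj windows, and in none of the Dll1, Jag1, Maml2 or Hes5 windows. Of 21045 promoter windows of protein-coding genes, 46.7% held these letters and 48.1% held TTAA. Neither the Notch1 nor the Notch2 window held a TTAA, and no insertion fell inside them. Each Dll1 window held a single TTAA. The site at chr17:15376001-15376004, 181 bases before the inner start, took 15 insertions in the SP1 groups and 6 in the unfused groups. The site at chr17:15377008-15377011, 79 bases before the outer start, took 8 and 44. These are raw counts from sets of unequal depth and do not compare levels. The whole Dll1 locus held 67 insertions in the SP1 groups and 284 in the unfused groups. Over both sites and those of Lfng and Maml2, all 103 insertions in member windows fell on a TTAA of the reference. The Hes1 promoter is named only.

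Depth differed widely. C57bl6J animals held 1545951 to 2186743 insertions, the unfused groups of the Syn1 and GFAP lines 97519 to 1505413, Frontflip_GFAPCre 160631 to 205559, the SP1 groups 86842 to 577609, BrokenHeart 42511 to 98197 and Rbp4Cre_TRAP 24408 to 57014. Frontflip_GFAPCreNeg held only 2341 to 9601 and entered no test. The summed level at 12 neuron marker loci was 4266 ± 227 CPM in Syn1Cre and 3983 ± 261 in GFAPCre (SD, 6 animals each), with no marker at 0 in either. At 12 astrocyte marker loci it was 1025 ± 580 in Syn1Cre and 1317 ± 358 in GFAPCre, against 2623 ± 254 in Syn1CreNeg and 2066 ± 664 in GFAPCreNeg, again with no marker at 0. The astrocyte marker loci were thus more heavily marked in the Cre-negative animals of both lines than in the Cre-positive animals. Syn1Cre animal 5 stood apart with 2189 at the astrocyte loci, against 676 to 931 in the other 5. A level is a share of the insertions of its table. A lower level could reflect fewer marked cells of a type, fewer insertions read per such cell or more insertions elsewhere. These cannot be told apart.

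Among the members, insertion density in Syn1Cre was highest at Hes1, with 87.8 ± 17.5 CPM in a locus of 22.4 kb (SD, n = 6). By contrast, Maml2 held 288 ± 129.7 in 433 kb and Notch1 14.5 ± 5.75 in 65.9 kb. Over the 10 groups other than Frontflip_GFAPCreNeg, Dll1 was highest in Syn1Cre_SP1_P10 at 58.8 ± 16.9 and lowest in BrokenHeart at 3.39 ± 5.88. Maml2 ranged from 682 ± 56.0 in Syn1Cre_SP1_P10 to 133 ± 41.5 in Rbp4Cre_TRAP. Hes1 was highest in Rbp4Cre_TRAP, where Maml2 was lowest, at 169.6 ± 52.2, and lowest in BrokenHeart at 26.1 ± 7.32. When groups were placed in order of their mean, over all 11 animal groups, the shallow Frontflip_GFAPCreNeg included, neighbouring groups overlapped in all 10 steps of the order for Notch1, Notch2, Jag1, Lfng, Hes1 and Hes5, and in 8, 8 and 9 steps for Dll1, Rbpj and Maml2. The orders are therefore not resolved step by step.

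**Figure D1:**
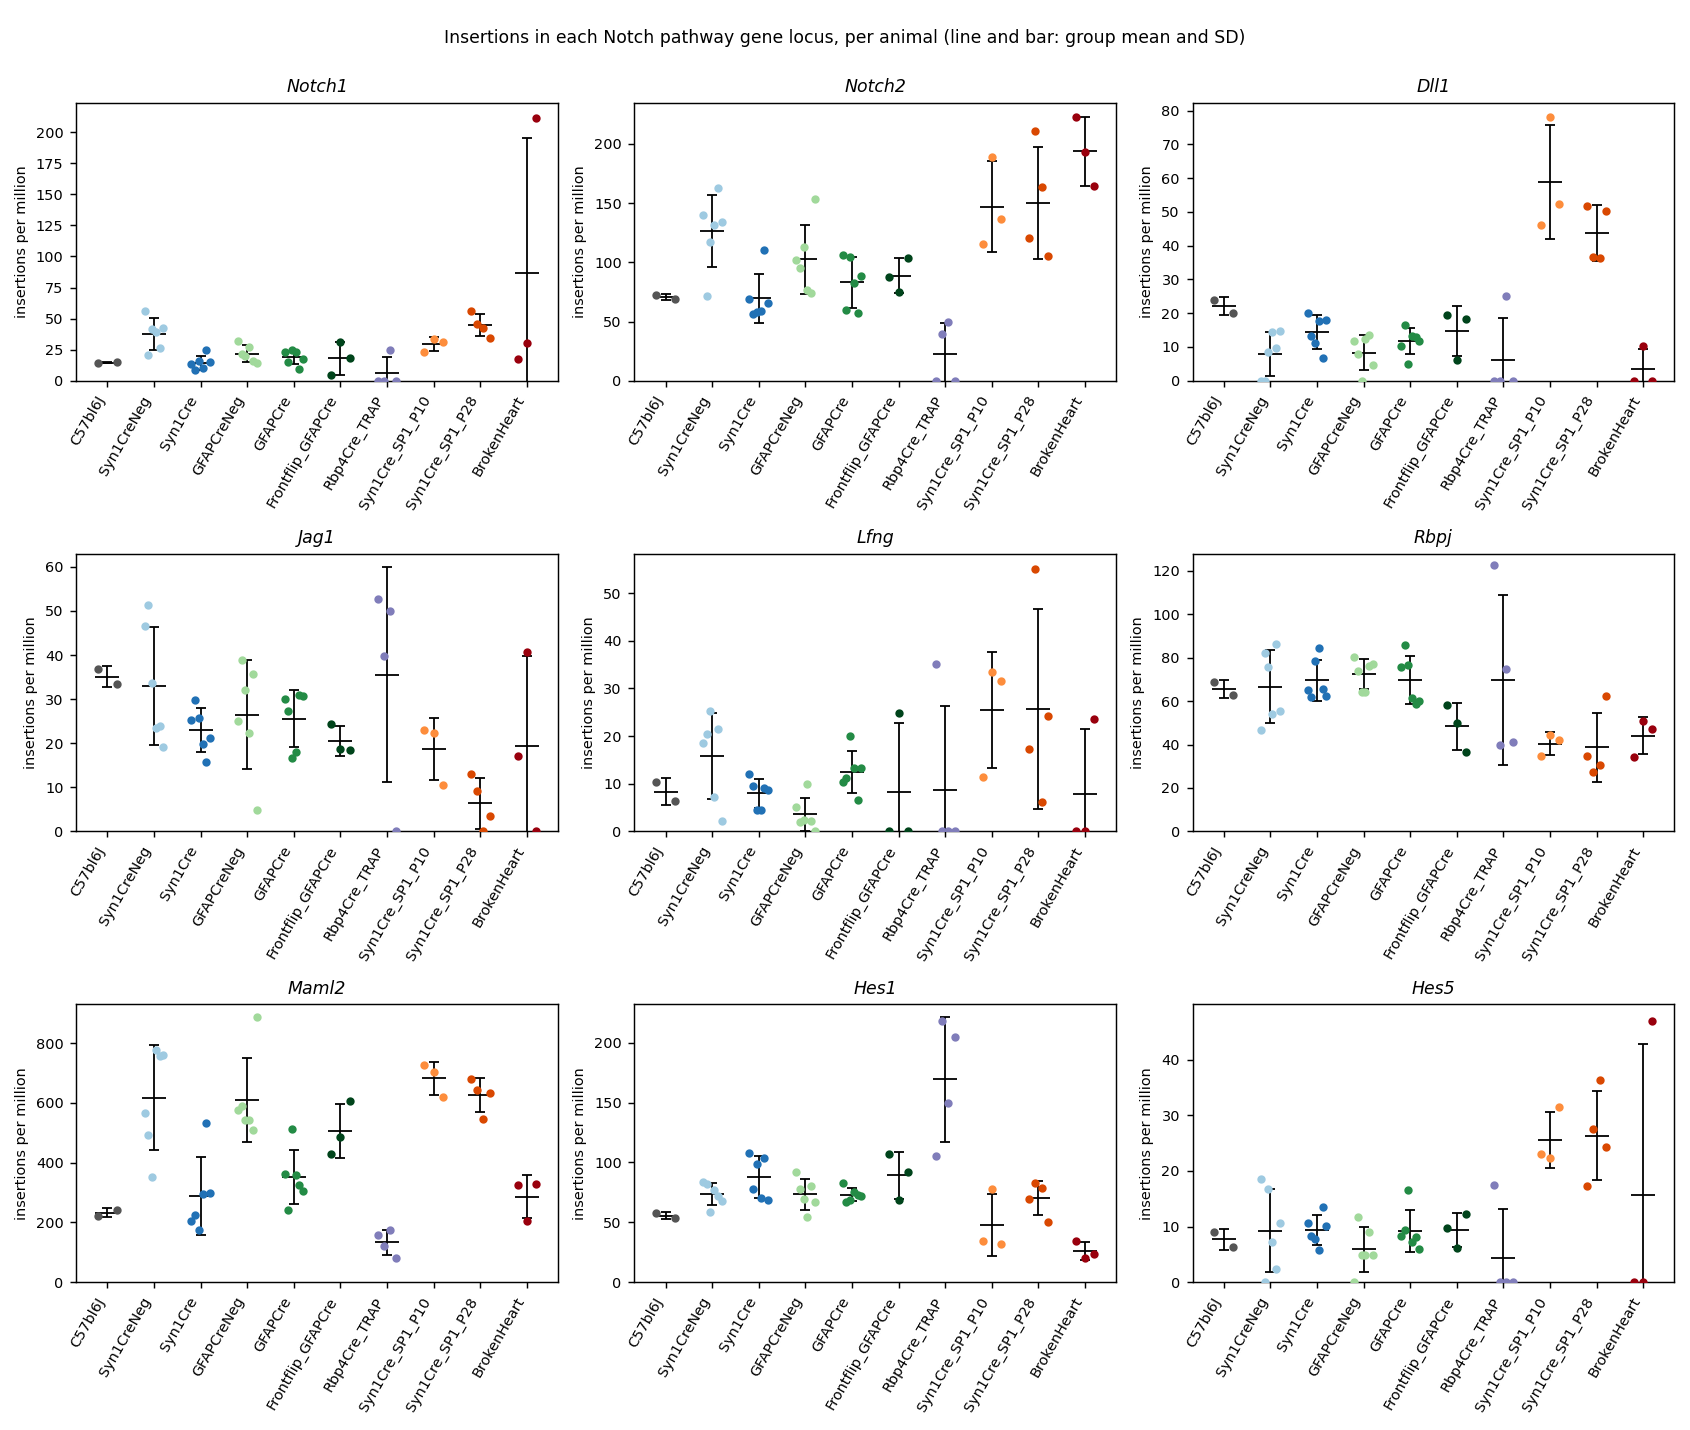
Insertions, in CPM, in each of the 9 loci (vertical axis, each panel on its own scale from 0), for every animal (points) of 10 groups (horizontal axis), with the group mean and SD. Maml2 was at most 533 in the Syn1Cre animals and at least 547 in the SP1 animals, and Dll1 was at least 36.4 in the SP1 animals and at most 25.0 in the animals of the other groups. CPM leaves out the scaling factors used in the tests.

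Comparing Syn1Cre with its Cre-negative controls asks which loci differ with Cre in the neuronal line. The groups shared no sequencing pool, so pool and Cre cannot be told apart. Both receptors and Maml2 fell in the Cre-positive animals, by 1.0 to 1.5 on the log2 scale, while Jag1, Rbpj and Hes1 did not pass the test. Of 6 members tested, 3 passed an adjusted p of 0.05 in edgeR's quasi-likelihood test (Benjamini-Hochberg over all loci tested), all 3 lower, where 17.5% of all loci passed as lower and 31.1% in either direction. The median log2 fold change of the tested members was -0.62, against 0.02 over all loci.

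Notch1, a receptor of neural progenitors, had 8.35 to 24.8 CPM in Syn1Cre (median 14.1) and 20.5 to 55.8 in Syn1CreNeg (median 40.8). The means were 14.5 ± 5.75 and 37.8 ± 12.6 (SD, 6 animals each), and the fitted change was -1.48 ± 0.26 on the log2 scale (SE, adjusted p = 0.000113). The groups overlapped only through Syn1Cre animal 5, the highest of its group, and Syn1CreNeg animal 2, the lowest of its own. Notch2, a receptor also found in glia and neural stem cells, ran from 56.1 to 111 in Syn1Cre (median 62.1) and from 71.8 to 163 in Syn1CreNeg (median 133). Its means of 69.7 ± 20.6 and 126 ± 30.4 gave a log2 fold change of -1.03 ± 0.17 (adjusted p = 6.5e-05). Syn1Cre animal 5 again was the highest, and the other 5 animals, at 69.1 or less, lay below all controls.

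Maml2, a Mastermind-like coactivator, had 175 to 533 CPM in Syn1Cre (median 259.7) and 353 to 779 in Syn1CreNeg (median 662). The log2 fold change was -1.19 ± 0.22 (adjusted p = 0.000193). Here too animal 5 at 533 was the Syn1Cre animal inside the control range; the next was at 299.8. Without that animal, which also had the high astrocyte marker sum, the 3 log2 fold changes were -1.61 for Notch1, -1.17 for Notch2 and -1.47 for Maml2. The 3 calls held in every alternative in which the locus was tested, with a highest adjusted p of 0.00268, 0.000673 and 0.00128. At the astrocyte marker loci, 9 of 10 tested fell in the same comparison (median -1.50), and at the neuron marker loci 4 of 10 rose and 1 fell. Of the other marker loci tested, 2 of 5 of the oligodendrocyte lineage and 1 of 2 of microglia fell, and 1 of 1 of endothelial cells rose. The part of these marker shifts in the receptor and Maml2 results was not tested.

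The remaining members gave values near 0. Jag1, a ligand used in glial and vascular patterning, had a log2 fold change of -0.22 ± 0.24 (adjusted p = 0.557). Rbpj, the DNA-binding core of the pathway, had 0.09 ± 0.17 (adjusted p = 0.731), with means of 69.6 ± 9.36 in Syn1Cre and 66.6 ± 16.7 in Syn1CreNeg. Hes1, a repressor and direct target, had 0.19 ± 0.16 (adjusted p = 0.389), with means of 87.8 ± 17.5 and 73.6 ± 9.40. Dll1, Lfng and Hes5 had too few insertions to pass the filter on low counts: 86, 42 and 49 over the 6 Syn1Cre animals and 20, 21 and 14 over the 6 controls.

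In the GFAP line the corresponding comparison gave a call for Maml2 alone among the members tested. Of 6 members tested 1 passed, lower, where 5.97% of all loci passed as lower and 8.15% in either direction. Maml2 had 241 to 511 CPM in GFAPCre (median 342) and 508 to 889 in GFAPCreNeg (median 561), so that only GFAPCre animal 3 and GFAPCreNeg animal 5 crossed. The log2 fold change was -0.78 ± 0.14 (adjusted p = 0.000852), and among the 7 animals whose sequencing pools held both groups it was -0.91 ± 0.16 (adjusted p = 0.00416). The values for Notch1 and Notch2 were -0.28 ± 0.24 (adjusted p = 0.525) and -0.26 ± 0.17 (adjusted p = 0.379), for Jag1 -0.14 ± 0.23 (adjusted p = 0.775), for Rbpj -0.03 ± 0.14 (adjusted p = 0.991) and for Hes1 -0.03 ± 0.13 (adjusted p = 0.919). Notch1 had means of 18.9 ± 5.76 in GFAPCre and 21.7 ± 6.72 in GFAPCreNeg (SD, 6 animals each), and the animals of the groups interleaved. Lfng, a glycosyltransferase that tunes which ligand Notch answers to, did not pass the filter; tested without it, it rose by 1.57 ± 0.44 (adjusted p = 0.0176), from 10 insertions in the 6 controls and 63 in the 6 GFAPCre animals. Without the filter 4.45% of all loci passed in either direction. At the astrocyte marker loci 4 of 11 tested fell (median -0.51), and their part in the Maml2 result was not tested.

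Whether the Cre effect differed between the lines was asked directly, by the difference of the differences. No member of 6 tested passed in edgeR's quasi-likelihood test, where 0.692% of all loci did, although 2 had an unadjusted p under 0.05; DESeq2 also called 0. For Notch1 the value was -1.19 ± 0.35 (adjusted p = 0.0959), for Notch2 -0.76 ± 0.25 (adjusted p = 0.167) and for Maml2 -0.40 ± 0.28 (adjusted p = 0.569). Jag1, Rbpj and Hes1 lay between -0.07 and 0.24, with adjusted p from 0.663 to 0.964. The receptor results in the neuronal line are thus not shown to differ from those in the astrocyte line. Between the Cre-negative groups themselves, Syn1CreNeg against GFAPCreNeg, 0 of 6 members passed by either tool, and 0.0426% of all loci did in edgeR. Notch1 and Notch2 had an unadjusted p under 0.05 there, with 0.68 ± 0.26 (adjusted p = 0.264) and 0.44 ± 0.16 (adjusted p = 0.238). Maml2, Jag1, Rbpj and Hes1 lay between -0.19 and 0.11. Without GFAPCreNeg animal 6, the animal with the highest astrocyte marker sum of its group at 3388, Notch2 passed with 0.53 (adjusted p = 0.0249). In that fit 4.59% of all loci passed.

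The neuronal and the astrocyte line set side by side, Syn1Cre against GFAPCre, gave no call among 7 members tested in edgeR's quasi-likelihood test or DESeq2, where 2.15% of all loci passed in edgeR; 2 members had an unadjusted p under 0.05. The receptors and Maml2 had values below 0: Notch1 -0.51 ± 0.24 (adjusted p = 0.274), Notch2 -0.35 ± 0.17 (adjusted p = 0.287) and Maml2 -0.34 ± 0.21 (adjusted p = 0.419). Dll1, a ligand of differentiating neurons, had 0.26 ± 0.24 (adjusted p = 0.632), with means of 14.4 ± 4.97 in Syn1Cre and 11.7 ± 3.87 in GFAPCre (SD, 6 animals each). Jag1, Rbpj and Hes1 lay between -0.22 and 0.17, with adjusted p from 0.516 to 0.854. Syn1Cre animal 5 weighed on this outcome. Without it Notch2 fell by 0.47 (adjusted p = 0.0422) and Maml2 by 0.57 (adjusted p = 0.017), where 6.98% of all loci passed. With Syn1Cre animals 1 to 3 alone they fell by 0.55 (adjusted p = 0.0343) and 0.92 (adjusted p = 0.000109), where 13.1% of all loci passed. The pool labels of animals 1 to 3 are laid out differently from those of animals 4 to 6. Insertions with a single read were 37.3% to 44.5% in animals 1 to 3, 10.1% to 15.2% in animals 4 to 6 and 5.65% to 16.6% in GFAPCre. With at least 2 reads per insertion and all animals, 0 of 6 members tested passed. The part of read depth was not tested. All 11 astrocyte marker loci tested had values below 0 in the full comparison (median -0.45), and 0 of them passed. Syn1Cre and GFAPCre animals shared no sequencing pool, so pool and line cannot be told apart.

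Frontflip_GFAPCre, a different construct in the astrocyte line, gave 0 calls in 7 members tested against Syn1Cre (3.49% of all loci) and 0 in 7 against GFAPCre (1.75%), by edgeR and by DESeq2; Maml2 had an unadjusted p under 0.05 in each. The Frontflip_GFAPCre animals had 428, 486 and 606 CPM at Maml2. All 3 lay above 5 of the 6 Syn1Cre animals, and the log2 fold change was 0.93 ± 0.27 (adjusted p = 0.0552) against Syn1Cre and 0.59 ± 0.18 (adjusted p = 0.0868) against GFAPCre. The other values were Notch1 0.44 and -0.08, Notch2 0.52 and 0.17, Dll1 0.09 and 0.34, Jag1 -0.03 and -0.26, Rbpj -0.40 and -0.48, and Hes1 0.20 and 0.36, with no adjusted p below 0.366. Their astrocyte marker sum was 2273 ± 426 (SD, n = 3), above the GFAPCre mean. In Frontflip_GFAPCreNeg there were 15 insertions at Maml2, 2 each at Notch2 and Hes1, 1 at Notch1 and 0 at the other 5 members, where a count of 0 allows up to 170.4 CPM over the group.

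**Figure D2:**
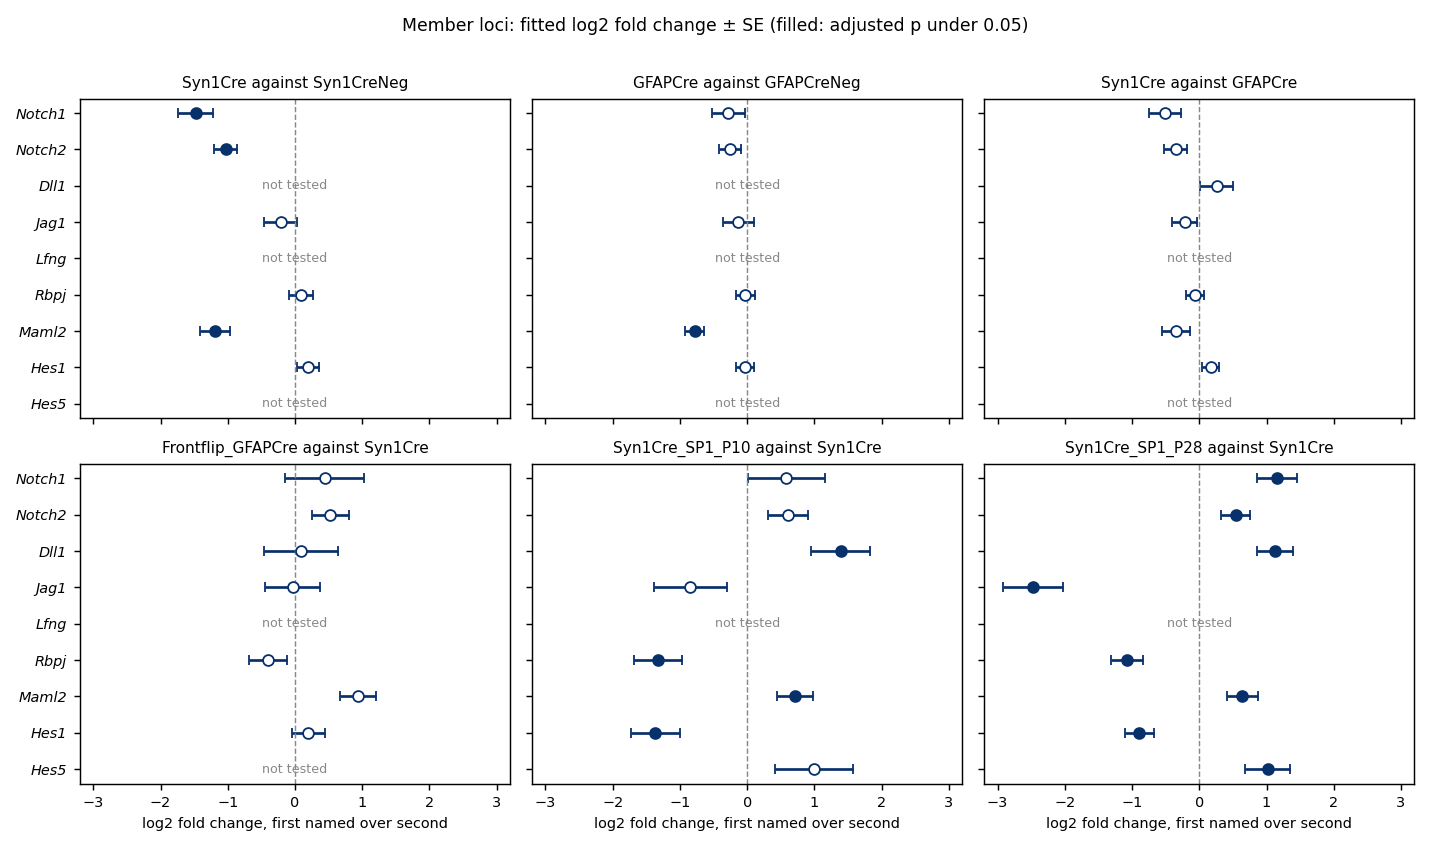
Fitted log2 fold changes with their SE (horizontal axis, TMM scaling) for the 9 members (vertical axis) in 6 comparisons, filled where the adjusted p was under 0.05. Notch1, Notch2 and Maml2 lay left of 0 in Syn1Cre against Syn1CreNeg and right of 0 in both SP1 comparisons; with total-insertion scaling the SP1 values moved right, and Hes1 at both days and Rbpj at P10 lost their calls.

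The SP1 comparisons held the most calls. Against Syn1Cre, all 8 members tested in Syn1Cre_SP1_P28 passed: Notch1, Notch2, Dll1, Hes5 and Maml2 rose, and the Jag1 locus, Rbpj and Hes1 fell. With DESeq2, 6 of the 8 passed. Of all loci, 51.5% passed, 26.2% higher and 25.3% lower, so a count of 8 says little about these genes; the sizes and directions are given for their own sake. Both SP1 comparisons share the Syn1Cre animals with each other and with those above. SP1 and unfused animals shared no sequencing pool, and the age of the Syn1Cre animals at collection is not given in the sources used here. At both days, pool, age and label therefore cannot be told apart. The SP1 results also depend on scaling: with TMM factors the median locus lay at -0.06 and 50.9% of calls were higher, and with total insertions at 0.42 and 80.4%. Overlap between animals is read on CPM, which scales by total insertions. At P28 the TMM factors were 1.19 to 1.28 in the SP1 animals and 0.817 to 0.931 in Syn1Cre. At P10 they were 1.26 to 1.29 and 0.83 to 0.943. A gap above Syn1Cre on CPM is therefore narrower, or closed, with these factors.

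At P28 the receptor Notch1 had 56.1, 45.9, 42.5 and 34.6 CPM in the 4 animals, against 8.35 to 24.8 in Syn1Cre. On CPM the groups did not overlap, and with TMM factors the log2 fold change was 1.15 ± 0.30 (adjusted p = 0.00233). Notch2 had 121, 211, 164 and 106, a rise of 0.54 ± 0.21 (adjusted p = 0.0374). Its lowest animal lay inside the Syn1Cre range of 56.1 to 111, and the call was lost in 5 of 12 alternatives, among them without P28 animal 2 or 3, with a highest adjusted p of 0.17.

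The ligand loci gave calls of opposite sign, but 10 of the 11 SP1 insertions counted for Jag1, over both days, lie in the body of the neighbouring gene Slx4ip, so that fall cannot be assigned to Jag1. Dll1 had 51.7, 36.7, 36.4 and 50.2 CPM at P28, against 6.77 to 19.9 in Syn1Cre (median 15.4). All 4 animals lay above all 6, a rise of 1.13 ± 0.27 (adjusted p = 0.0012), which was 1.60 with total-insertion scaling. Jag1 had 12.9, 9.18, 0 and 3.46, against 15.8 to 29.8 in Syn1Cre (median 23.2), and fell by 2.47 on the log2 scale (SE 0.45, adjusted p = 5.2e-05). The 4 values rest on 6 insertions, and the animal at 0 had a depth at which 0 insertions allow up to 18.2 CPM. With total-insertion scaling Jag1 still fell, by 2.01. Lfng, untested for low counts, had 17.2, 55.1, 6.07 and 24.2 against a median of 8.81 in Syn1Cre, with P28 animal 3 inside the Syn1Cre range; without the filter it rose by 1.15 ± 0.41 (adjusted p = 0.0235).

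Of the nuclear partners, Rbpj had 34.5, 27.5, 30.4 and 62.3 CPM, against 62.0 to 84.3 in Syn1Cre (median 65.3). It fell by 1.07 (SE 0.23, adjusted p = 0.000422), and by 0.61 (adjusted p = 0.0308) with total-insertion scaling; 3 of the 4 animals lay below all Syn1Cre animals. Maml2 had 681, 642, 547 and 634, above the highest Syn1Cre animal at 533. Its rise of 0.64 ± 0.23 (adjusted p = 0.0236) was lost with DESeq2 and without P28 animal 1, with a highest adjusted p of 0.0709. The astrocyte marker sum was 1931 ± 569 at P28 (SD, n = 4) against 1025 ± 580 in Syn1Cre, and 2 of 12 astrocyte marker loci tested rose. The neuron marker sum was lower in every P28 animal, at 3335 to 3510 against 4046 to 4558 in Syn1Cre, with 3 of 12 loci higher and 5 lower past the threshold. At 5 microglia marker loci the sum was higher, at 123 to 165 against 68.9 to 83.5. Of these, 2 were tested: 1 lay above 0 and passed, and 1 lay below 0. Of 6 oligodendrocyte lineage loci tested 0 rose and 2 fell past the threshold, and of 2 endothelial loci 0 rose and 1 fell. The part of these marker shifts in the SP1 results was not tested.

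The target genes also parted. Hes5, a repressor of neurogenesis, had 17.2, 27.5, 36.4 and 24.2 CPM at P28, against 5.86 to 13.5 in Syn1Cre (median 9.25). It rose by 1.01 ± 0.34 (adjusted p = 0.0136), without overlap on CPM, and the call was lost without P28 animal 3 or 4 (highest adjusted p 0.0631). Hes1 had 69.0, 82.6, 79.0 and 50.2, against 68.7 to 108 (median 88.0), with overlap. It fell by 0.89 (SE 0.21, adjusted p = 0.00102) with TMM factors. With total-insertion scaling it fell by 0.42 (adjusted p = 0.116) and the call was lost, and counted once per distinct position its value was 0.16 (adjusted p = 0.629), so the direction at Hes1 is not settled.

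At day 10, 4 of 8 members tested passed against Syn1Cre, where 40.7% of all loci did, 20.1% higher and 20.6% lower. Dll1 and Maml2 rose, and Rbpj and Hes1 fell. With DESeq2, 3 of the 8 passed. These libraries were shallow: a single insertion was worth 10.5 to 11.5 CPM. The split of calls again depended on scaling, with 49.3% higher and a median of -0.26 under TMM factors, and 76.1% higher and 0.27 with total insertions.

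Dll1 had 46.1, 78.0 and 52.4 CPM at P10, from 16 insertions, all above the Syn1Cre range. It rose by 1.39 ± 0.44 (adjusted p = 0.013), but not past the threshold without P10 animal 2 (1.11, adjusted p = 0.138). Maml2, with 725, 702 and 619, also lay above all Syn1Cre animals, with 0.71 ± 0.27 (adjusted p = 0.0377). This call was lost in 5 of 11 alternatives, including those without each P10 animal in turn, with a highest adjusted p of 0.155. Rbpj had 34.5, 44.6 and 42.0, from 11 insertions, below all Syn1Cre animals, and fell by 1.33 (SE 0.36, adjusted p = 0.00476). Hes1 had 34.5, 78.0 and 31.5, from 13 insertions, and fell by 1.36 (SE 0.36, adjusted p = 0.00392), with P10 animal 2 inside the Syn1Cre range. With total-insertion scaling neither passed: Rbpj had -0.79 (adjusted p = 0.102) and Hes1 -0.84 (adjusted p = 0.0936). Counted in the gene body alone Rbpj had -0.83 (adjusted p = 0.111), and counted once per distinct position Hes1 had -0.16 (adjusted p = 0.798), so neither fall held in every setting. Under that scaling Notch2 passed, with 1.13 (adjusted p = 0.00246). The neuron marker sum was 2867 to 3220 CPM at P10, below all Syn1Cre animals, and the microglia sum 138 to 241, above all of them, with Csf1r, Cx3cr1 and Tmem119 at 0. The astrocyte sum was 1106 ± 132 (SD, n = 3). Past the threshold, 3 of 12 neuron loci tested rose and 6 fell, and 0 of 12 astrocyte loci rose and 2 fell. Of 2 microglia loci tested 1 rose and 0 fell, with the other below 0. Of 6 oligodendrocyte lineage loci 0 rose and 1 fell, and of 2 endothelial loci 0 rose and 1 fell. Their part in the P10 results was not tested.

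The members that did not pass at P10 were Notch1 at 0.58 ± 0.57 (adjusted p = 0.431), Notch2 at 0.60 ± 0.30 (adjusted p = 0.105), Jag1 at -0.85 ± 0.55 (adjusted p = 0.245) and Hes5 at 0.99 ± 0.58 (adjusted p = 0.19). Notch2 had 115, 189 and 136 CPM and Hes5 23.0, 22.3 and 31.5, in both cases above all Syn1Cre animals. The Hes5 values rest on 7 insertions. In P10 animal 2, 2 insertions gave 22.3, where the highest Syn1Cre animal was at 13.5. Jag1, with 23.0, 22.3 and 10.5 from 5 insertions, overlapped the Syn1Cre animals. Between the days themselves only Notch2 and Maml2 had enough insertions to test, in a comparison where 11.2% of all loci passed. Their log2 fold changes, P28 over P10, were 0.02 ± 0.28 (adjusted p = 0.979) and -0.01 ± 0.20 (adjusted p = 0.982) in edgeR; 0 of 2 had an unadjusted p under 0.05, and DESeq2 called 0. Without the low-count filter all 9 members were tested between the days and 0 passed. Jag1, at 18.6 ± 7.03 on day 10 (SD, n = 3) and 6.39 ± 5.77 on day 28 (SD, n = 4), then had -1.50 ± 0.97 (adjusted p = 0.557), and Notch1 0.63 ± 0.54 (adjusted p = 0.705).

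The position of insertions inside the loci was described without a test. In the unfused groups read from RNA, 30.3% of Dll1 insertions lay within 1 kb of a listed start, which is 10.5% of the locus, against 40.3% in the SP1 groups. At Notch2 the share was 2.39% in the unfused groups and 9.50% in the SP1 groups, in 1.28% of the locus. Notch1 had 4.68% and 9.43% in 3.04% of its locus, the latter from 5 of 53 insertions, all 5 at P28, where they were 5 of 45; at P10 there were 0 of 8. Lfng had 5.81% and 15.6% in 7.09% of its locus, Hes5 5.03% and 2.94% in 9.20%, and Maml2 2.07% and 2.53% in 0.924%. Jag1 and Rbpj had none near a start in either set.

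Per animal, Notch2 had 0 to 3.66 CPM near its start in Syn1Cre (mean 0.962 ± 1.43, SD, n = 6), 10.5 to 23.0 at P10 (14.9 ± 7.06, n = 3) and 10.4 to 18.4 at P28 (13.5 ± 3.43, n = 4). These rest on 4 insertions at P10 and 13 at P28. A single insertion at P10 was worth more than the highest Syn1Cre value, so that the P10 animals lie above Syn1Cre says little. The same holds for P28 animals 1 to 3, where a single insertion was worth 4.31, 9.18 and 6.07 CPM. They held 3, 2 and 2 insertions near the Notch2 start, and P28 animal 4 held 6. In the rest of the locus the means were 68.7, 132 and 137. Dll1 had 2.26 to 9.30 near a start in Syn1Cre (5.32 ± 2.93), 22.3 to 31.5 at P10 (25.6 ± 5.10) and 17.2 to 27.5 at P28 (20.1 ± 4.99), from 7 and 20 insertions. The means in the rest of its locus were 9.10, 33.2 and 23.7, so at Dll1 both portions were higher in the SP1 groups.

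**Figure D3:**
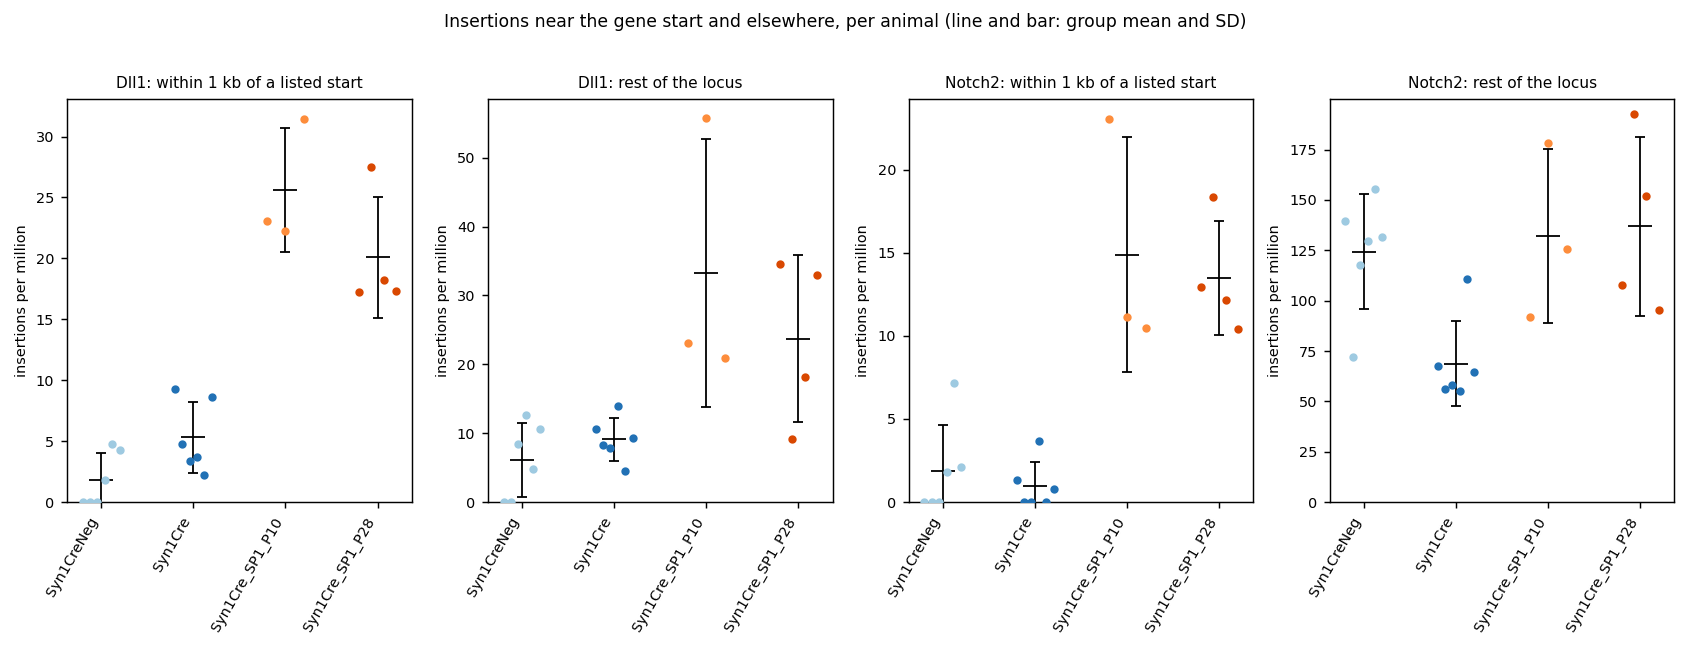
Insertions, in CPM (vertical axes, from 0), within 1 kb of a listed start and in the rest of the locus for Dll1 and Notch2, for each animal (points) of 4 groups (horizontal axes), with group mean and SD. Near the starts, the SP1 animals were at 10.4 and above for Notch2 and 17.2 and above for Dll1. The P10 values rest on 4 and 7 insertions and the P28 values on 13 and 20.

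A few TTAA sites carried much of the signal. At Notch2 a site in the gene body at chr3:98063590 took 150 insertions in 29 unfused animals and 33 in all 7 SP1 animals, and its 2 kb bin, 51.0 kb into the gene, held 20.9% of unfused and 36.3% of SP1 insertions in 1.27% of the locus. That bin had 16.9 CPM in Syn1Cre, 37.6 in Syn1CreNeg and 49.2 in Syn1Cre_SP1_P28. At Notch1 the busiest bin differed: upstream of the gene in the unfused groups, at chr2:26507902-26509901 with 22.0% of insertions, and inside the gene near its start in the SP1 groups, at chr2:26499902-26501901 with 45.3% of 53 insertions. In the latter bin Syn1Cre had 2.01 CPM, Syn1CreNeg 8.97 and Syn1Cre_SP1_P28 18.6.

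Maml2 insertions were spread out. The fullest 2 kb bin, at chr9:13582561-13584560, held 7.35% of unfused insertions in 0.461% of the locus, with 20.9 CPM in Syn1Cre, 63.7 in Syn1CreNeg and 26.2 in GFAPCre. A stretch of 90.65 kb of the same gene, chr9:13324295-13414944, held no insertion in any of the 47 tables and is not analysed here; in the other 8 loci the longest such stretch was 2.58 to 7.49 kb. Rbpj was also spread, its fullest bin holding 6.35% of unfused insertions.

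**Figure D4:**
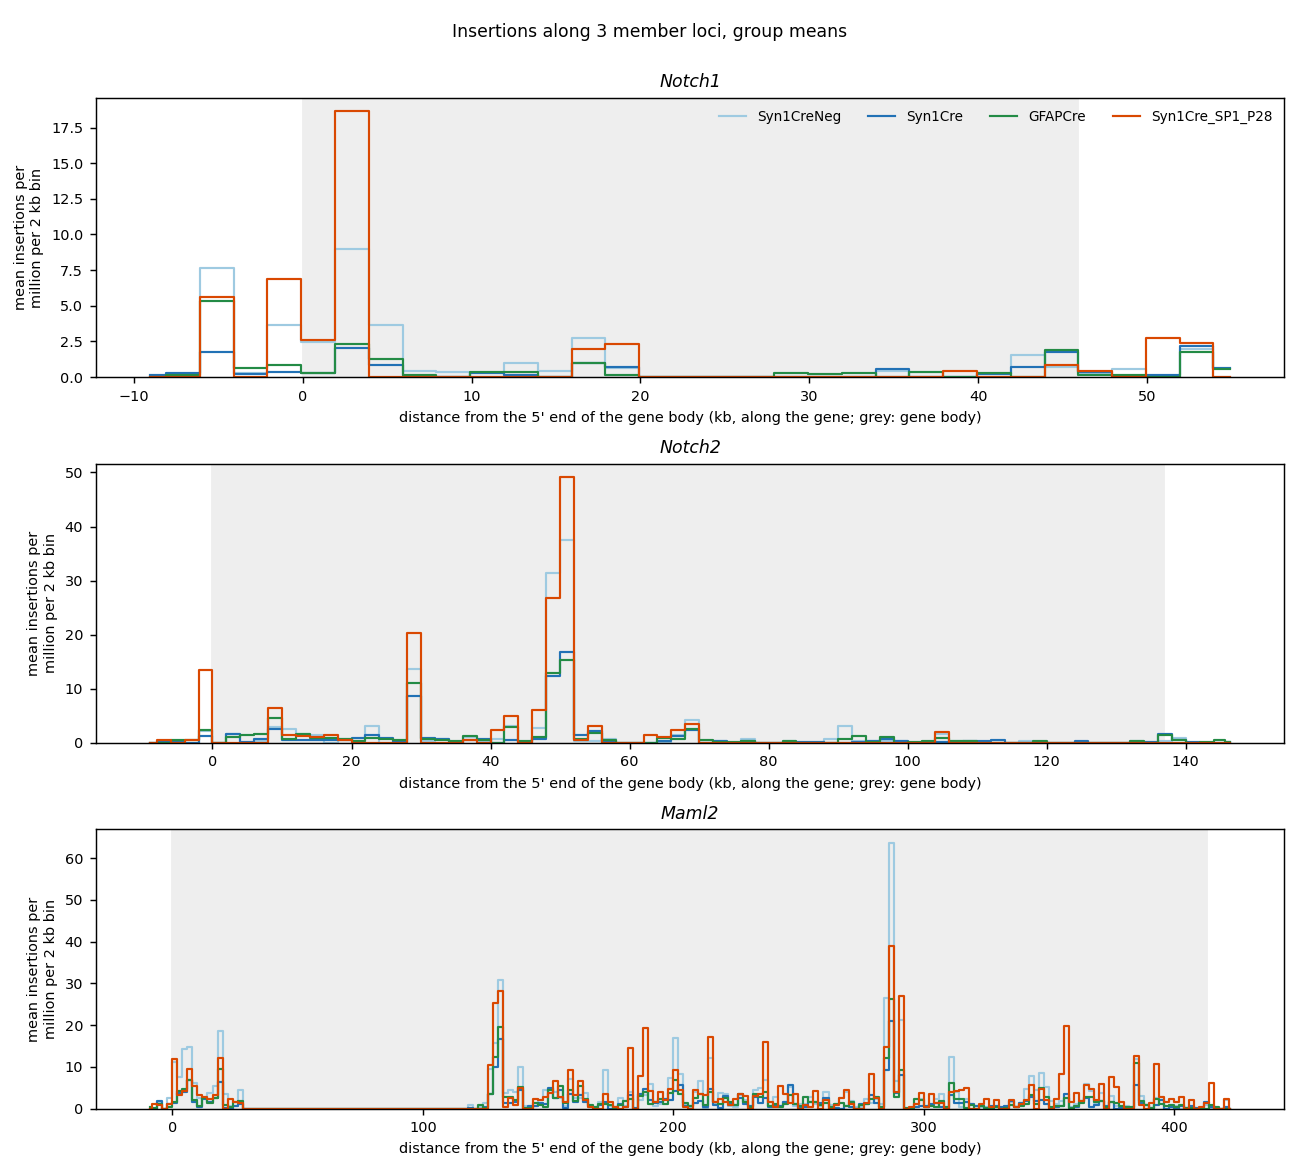
Mean CPM in 2 kb bins (vertical axis, from 0) along Notch1, Notch2 and Maml2 by distance from the 5′ end of the gene body (horizontal axis, kb), for 4 groups. The Notch2 profile peaks 51.0 kb into the gene in all 4 groups, at 16.9 in Syn1Cre, 15.4 in GFAPCre, 37.6 in Syn1CreNeg and 49.2 in Syn1Cre_SP1_P28.

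The Jag1 and Lfng loci were dominated by their flanks. A 2 kb bin at chr2:137073451-137075450, which lies in the body of Slx4ip, held 61.2% of the unfused insertions counted for Jag1 and 10 of the 11 SP1 insertions. The Jag1 values above are thus mainly values of that bin. In Lfng the fullest bin, at chr5:140619341-140621340, overlaps Ttyh3 and held 56.4% of unfused insertions. Hes1 insertions gathered outside its short body, with 33.3% of unfused insertions at chr16:30061357-30063356 and 47.5% of SP1 insertions at chr16:30069357-30071356. The first of these bins had 30.6 CPM in Syn1Cre and 15.5 at P28, the other 25.8 and 35.1. At Hes5 the fullest site, chr4:154962248 in the gene body, took 39 unfused insertions in 23 animals and 15 SP1 insertions in all 7 animals.

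The Rbp4Cre_TRAP libraries were the shallowest tested, at 17.5 to 41.0 CPM for a single insertion. They shared no sequencing pool with Syn1Cre. Cre line, tissue, RNA isolation, pool and depth differ together between Rbp4Cre_TRAP and Syn1Cre and cannot be told apart. None of 6 members passed against Syn1Cre in edgeR's quasi-likelihood test, where 2.11% of all loci did; 3 had an unadjusted p under 0.05, and DESeq2 called 0. Maml2 had 158, 119, 175 and 81.9 CPM, with 3 of the 4 animals below the lowest Syn1Cre animal and the other beside it at 175, and a log2 fold change of -1.29 ± 0.39 (adjusted p = 0.0725). Notch2 had 0, 39.7, 49.9 and 0 (-1.75 ± 0.65, adjusted p = 0.148). Hes1 had 105, 218, 149.8 and 205 and gave 0.69 ± 0.31 (adjusted p = 0.268), Jag1 0.57 ± 0.58 (adjusted p = 0.693), Rbpj -0.14 ± 0.40 (adjusted p = 0.905) and Dll1 -1.60 ± 1.19 (adjusted p = 0.549). The astrocyte marker sum was 449 ± 192 (SD, n = 4), with Aldoc at 0.

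Insertions read from DNA in BrokenHeart were set against those read from RNA in C57bl6J. Readout, construct and depth differ together between these groups and cannot be told apart. Notch2 rose and Maml2 did not pass: 1 of 2 members tested was higher, where 18.7% of all loci passed as higher and 39.9% in either direction. Notch2 had 223, 194 and 165 CPM in BrokenHeart and 72.5 and 69.1 in C57bl6J, without overlap. The log2 fold change was 1.41 ± 0.29 (adjusted p = 0.000227). It missed the threshold without BrokenHeart animal 1 (1.03, adjusted p = 0.0527) or 2 (0.99, adjusted p = 0.108), when more loci passed the low-count filter and Notch1 passed, with 2.17 and 2.24. Notch1 had 17.2, 30.6 and 212 in the 3 BrokenHeart animals, the widest spread within that group among the members. These values rest on 1, 3 and 9 insertions, and both fits in which Notch1 passed kept animal 3, the highest. Maml2 gave 0.13 ± 0.22 (adjusted p = 0.664). In the pooled N2a table, which has no replicate, Hes1 was at 182 CPM, Maml2 at 138, Notch2 at 144 and Notch1 at 69.4, while Hes5 was at 2.48 from 2 insertions.

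Beyond the members, 46 further genes of the pathway were followed. In Syn1Cre against Syn1CreNeg, 2 rose and 5 fell of 30 tested, where 31.1% of all loci passed. Nrarp, a feedback inhibitor that binds the Notch complex, fell by 1.82 (adjusted p = 0.00012), the Notch target Hey1 by 0.82 (adjusted p = 0.000987) and the acetyltransferase gene Kat2b by 0.69 (adjusted p = 0.0159). Maml3, of the same family as Maml2, rose by 0.63 (adjusted p = 0.000634), the opposite sign to Maml2, and the ubiquitin ligase gene Neurl1a by 0.55 (adjusted p = 0.0489). In the GFAP line 1 rose and 1 fell of 31 tested, where 8.15% of all loci passed: Maml3 rose by 0.34 (adjusted p = 0.0392), and Poglut1, which glucosylates Notch, fell by 0.82 (adjusted p = 0.0164). In Syn1Cre against GFAPCre 0 of 35 passed, and in the difference of the Cre effects 0 of 34, both in edgeR.

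With the SP1 label, 15 rose and 7 fell of 36 tested at P28, where 51.5% of all loci passed, and 15 rose and 8 fell of 37 at P10, where 40.7% did. Of all loci the higher and the lower calls were nearly equal in number with TMM factors, and the higher were in the majority with total insertions (80.4% and 76.1% of calls), so the split depends on scaling. Poglut1 rose by 2.15 at P28 and 2.00 at P10 and the receptor gene Notch4 by 2.05 and 2.39. Psen2, of the protease complex that releases the receptor's intracellular part, rose by 1.67 at P28. Fbxw7, which marks active Notch for degradation, fell by 0.91 at P28 and by 1.93 at P10, and was the single gene of 15 tested that passed between the days, higher at P28 by 1.09 (adjusted p = 0.00724). At P10, Dtx1, a Deltex regulator, rose by 2.16, and Snw1, a nuclear cofactor, and Pofut1, which fucosylates Notch, fell by 3.46 and 2.70. At P28 the Deltex gene Dtx4 fell by 1.07. Elsewhere, Spen, a corepressor partner of RBPJ, rose by 0.63 and Maml3 fell by 0.74 in Frontflip_GFAPCre against Syn1Cre (36 tested), Aph1b, of the same protease complex, fell by 2.77 against GFAPCre (33 tested), Mib1, a ubiquitin ligase for the ligands, fell by 3.29 in Rbp4Cre_TRAP (35 tested), and Maml3 fell by 0.98 in BrokenHeart (4 tested).

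The loci whose group means most resembled each member were found by the correlation of log2(mean CPM + 10) over 10 groups, among 9436 candidate loci more than 1 Mb away; groups share depth and readout, so these are descriptions. Notch1 was nearest to Pik3ip1 (r = 0.961), Syt11 and Eprs, and Notch2 to Marchf6 (r = 0.973), Wnk2 and 1110017D15Rik. Maml2 was nearest to Spag9 (r = 0.975), Gm46608 and Fgfr1. For Rbpj the nearest was Cdk14 (r = 0.978), for Hes1 Rapsn (r = 0.973), for Hes5 Jade2 (r = 0.986), for Dll1 Tagap1 (r = 0.982), for Jag1 Ust (r = 0.936) and for Lfng Spast (r = 0.93). Among the members, the receptors followed each other (r = 0.905 over the same 10 groups), and Hes5 and Rbpj ran opposite (r = -0.891).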

How the data were processed

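Each of the 47 tables lists genomic insertions of the transposon, 1 entry an insertion with its read count, and the authors deposited them as raw counts with no normalization. The submitters' processing notes name Novoalign, Bowtie2 and the mm10 build, which is GRCm38; versions and settings are not given in the sources used here. Per the labels, the 194 samples are sequencing pools of cortex pieces or cultures, while the tables are given per animal, and the same TTAA counts again in another piece. In pairwise comparisons, animals of the compared groups shared pools only in GFAPCre against GFAPCreNeg (7 animals) and between the SP1 days (6 animals). The difference of the Cre effects, which takes in both lines, also held GFAPCre and Syn1CreNeg animals that shared pools. BrokenHeart starts, offset by 1 base, were aligned to the TTAA.

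Insertions were counted per locus (RefSeq gene bodies, GRCm38.p6, chromosomes 1 to 19 and X, with 10.0 kb on each side) and tested with edgeR 4.0.16 in R 4.3.3: quasi-likelihood test, table totals as library sizes, TMM factors, filterByExpr, Benjamini-Hochberg over all loci, threshold 0.05. Only the compared groups entered a fit. The SE is the log2 fold change over the square root of F. Levels are insertions per 1000000 of the table (CPM). DESeq2 1.42.0 and the alternatives in the closing section were run beside it. On simulated counts with 200 loci changed 3-fold, 30.0% (Rbp4Cre_TRAP against Syn1Cre) to 88.5% (Syn1CreNeg against GFAPCreNeg) were recovered, and 48.0% for Syn1Cre_SP1_P10. Floors of 3 counts cover counting error only.

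The members, the 46 further pathway genes and the marker lists were chosen with earlier results of these data known. All members are named wherever tested; of the further genes, at most the 3 highest and 3 lowest past the threshold, of which 1 is not reported here; look-alike loci are the 3 with the highest correlation. Promoter sequences come from RefSeq tables for 8 of the 9 members.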

Additional observations from a re-analysis of the deposited data

Results flagged for a closer look

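In groups of 4 to 10 animals, 54 sets of member levels were checked for a highest or lowest animal standing apart by Dixon's criterion at the 95% level, and 8 met it. Chance alone meets it in about 5% of sets of continuous, normally spread values. That rate does not hold for counts near 0, so 8 of 54 is not compared with it. Syn1Cre animal 5 stood above its group at Notch2, with 110.6 CPM against 69.1 in the next animal, and at Maml2, with 533 against 299.8. GFAPCreNeg animal 6 stood above its group at Maml2, with 889 against 590.4. These are the animals with the highest astrocyte marker sums of their groups, 2189 and 3388; the part of those markers was not tested. Hes5 in GFAPCre animal 3 was at 16.7 against 9.30, from 10 insertions. The other 4 rest on 1 or 2 insertions in shallow Rbp4Cre_TRAP libraries whose other animals were at 0: Notch1 and Dll1 at 25.0 in animal 3, Lfng at 35.1 in animal 1 and Hes5 at 17.5 in animal 1. With the other animals at 0, any insertion meets the criterion.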

How the results depend on the processing

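Of 214 refits of the member calls, 190 kept direction and threshold, 23 lost the threshold and 1 changed sign: Hes1 in Syn1Cre_SP1_P28, at 0.16 when each distinct position counted once. Among 705 refits of members that had not passed, 22 passed and 59 changed sign with neither value past the threshold. The number of members past the threshold moved as follows. Syn1Cre against GFAPCre went from 0 to 2 with Syn1Cre animals 1 to 3 only, and to 0 to 2 on leaving out 1 animal. GFAPCre against GFAPCreNeg went from 1 to 2 without the low-count filter. Syn1CreNeg against GFAPCreNeg gave 0 to 1 on leaving out 1 animal. Frontflip_GFAPCre against Syn1Cre went from 0 to 1, by Maml2, with total insertions, no filter, distinct positions, thinning to equal depth or the replicate block, and against GFAPCre to 1, also Maml2, with no filter, distinct positions or the replicate block. Syn1Cre_SP1_P28 against Syn1Cre went from 8 to 4 with distinct positions, 4 with gene bodies alone, 2 with thinning, where only 2 were tested, 6 with DESeq2 or at least 2 reads, and 7 with total insertions or on leaving out 1 animal. Syn1Cre_SP1_P10 went from 4 to 3 with DESeq2, total insertions, distinct positions, at least 2 reads, gene bodies alone or thinning, and to 2 to 3 on leaving out 1 animal. Rbp4Cre_TRAP went from 0 to 2 without the filter, 2 with distinct positions and 1 with at least 2 reads; thinned, no member could be tested. BrokenHeart against C57bl6J went from 1 to 0 with thinning, where Maml2 was the 1 member tested; without the filter the count stayed at 1, but the member was Hes1, lower at -1.72 (adjusted p = 0.048), and Notch2 missed the threshold at 0.88 (adjusted p = 0.0512). Animal numbers did not pair the groups: in no comparison did every pair of deviations correlate above 0.1. As a block they left 3 members past the threshold in Syn1Cre against Syn1CreNeg, 8 in Syn1Cre_SP1_P28 and 5 in Syn1Cre_SP1_P10. The causes of these shifts were not tested.

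Over all loci, the number past the threshold moved by more than 1.5 times in every comparison in at least 1 setting: from 248 to between 128 and 1634 (Syn1Cre against GFAPCre), 2676 to 1774 with distinct positions (Syn1Cre against Syn1CreNeg), 750 to 316 (GFAPCre against GFAPCreNeg), 73 to 30 (difference of the Cre effects), 3 to between 0 and 337 (Cre-negative groups), 419 to between 54 and 1085 and 184 to between 16 and 309 (Frontflip_GFAPCre against Syn1Cre and GFAPCre), 6204 to 1609 and 5205 to 1809 (SP1 at P28 and P10), 387 to 7 (between the days), 226 to between 93 and 759 (Rbp4Cre_TRAP) and 749 to between 157 and 1353 (BrokenHeart). With total insertions in place of TMM factors, the share of calls that were higher went from 73.7% to 58.8% and from 85.9% to 75.5% for Frontflip_GFAPCre, from 66.7% to 44.6% between the SP1 days and from 9.29% to 42.6% for Rbp4Cre_TRAP. Low depth limits Dll1, Lfng and Hes5 in most comparisons.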
